A study of Mus musculus with 14 samples.

Results

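RNA from 10 genes that move cholesterol into, through and out of the absorptive cells of the small intestine was compared between the ileum mucosa of WT mice and of mice that lack NCoR1 in the intestinal epithelium (IKO). The genes are Npc1l1 (uptake), Abca1, Abcg1, Abcg5 and Abcg8 (export), Soat1 and Soat2 (esterification), Mylip (receptor degradation), and Npc1 and Npc2 (lysosomal release). They were taken by gene symbol from a table of read counts for 54532 genes. All 10 were found, and all 10 were among the 13846 genes that passed the filter on low counts and were tested.

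NCoR1 is a corepressor that nuclear receptors such as the liver X receptors (LXR) recruit in the absence of activating ligand. The WT mice carried NCoR1 flox/flox alleles, and the IKO mice carried the same alleles together with a Cre recombinase driven by the villin promoter, which is active in intestinal epithelial cells. The Cre was present in IKO mice and not in their controls, so its effect and that of the deletion cannot be told apart. All mice were male, were 7 to 8 weeks old when assigned to a diet (an older age is also given for these experiments), and had been fed a high-fat diet (HFD) for 15 weeks. Each genotype had 7 mice with 1 library each. The mucosa was scraped from the ileum, so the libraries, labelled as intestinal epithelial cells, can also hold RNA from cells that keep NCoR1.

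Enterocytes take up free cholesterol from the lumen through NPC1L1 in the brush border. Part of it is esterified by SOAT2 and packed into chylomicrons, part leaves through ABCA1 at the basolateral side as high-density lipoprotein, and part is returned to the lumen by the ABCG5/ABCG8 heterodimer. Cholesterol that arrives in lysosomes is passed from NPC2 to NPC1 and released to other membranes. Oxysterols activate LXR, and Abca1, Abcg1, Abcg5, Abcg8 and Mylip are known LXR target genes.

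The libraries held between 14749669 and 21557468 counts. The mitochondrially encoded share was 50.3% in IKO 4 and 23.9% in WT 3, and lay from 3.49% to 10.3% for the rest of the mice. Levels are given as CPM (counts divided by the library size and rescaled to a common total) after TMM scaling, and the fold change, its standard error (SE) and its p-value, adjusted by the Benjamini-Hochberg procedure over all genes tested, are from edgeR's quasi-likelihood test. Ncor1, the targeted gene, lay between 106 and 195 CPM in WT and between 31.7 and 64.0 CPM in IKO mice (log2 fold change -1.41, adjusted p = 0.00051). All 7 enterocyte markers examined were detected in every mouse, and their summed level ranged from 11880 (WT 7) to 48433 CPM (WT 2) in WT and from 31624 to 48503 CPM in IKO mice. The 2 ileal markers Fabp6 and Slc10a2 summed to between 232 and 7826 CPM in WT and between 306 and 6239 CPM in IKO mice, so the libraries differed widely within both genotypes in a gene pair that marks the distal intestine. The sum was mostly Fabp6 (WT means of 2808 and 227 CPM). Between genotypes the 2 went opposite ways and neither passed (Fabp6 log2 fold change -0.46, adjusted p = 0.772; Slc10a2 1.08, adjusted p = 0.203). Of 4 markers of the proximal intestine, Fabp1 was higher in IKO mice (148 to 1677 CPM in WT and 1285 to 7949 CPM in IKO mice, log2 fold change 2.17, adjusted p = 0.0277), Gata4 (-0.00032, adjusted p = 1.00) and Slc40a1 (0.26, adjusted p = 0.794) did not pass, and Cybrd1 had too few counts for edgeR and was called lower by DESeq2. The paper also reports Fabp1 as a target of the nuclear receptor PPARα that is raised in the IKO ileum. Between the genotypes, Fabp1 therefore cannot be read as a marker of gut region alone. WT 4 stood apart with 9090 CPM of smooth muscle markers (4.34 to 54.6 CPM in the other WT and 4.30 to 667 CPM in IKO mice) and 304 CPM of fibroblast markers (5.86 to 55.9 CPM and 7.17 to 39.2 CPM), and it was neither the highest nor the lowest WT mouse for any of the 10 genes. Of 5 B and plasma cell and 4 fibroblast markers, none passed in edgeR, DESeq2 or limma-voom, with 3 and 3, 3 and 2, and 0 and 0 at a lower level in IKO mice when p under 0.05 is read without adjustment. Of all genes, 18.5% were lower at that level in edgeR, and the shares for DESeq2 and limma-voom were not computed. In bulk RNA, fewer cells of a type and less RNA per cell cannot be told apart.

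None of the 10 sterol genes passed an adjusted p of 0.05 between the genotypes in edgeR, where 8.67% of all genes did. Without adjustment, 3 had a p under 0.05 (Abca1, Abcg8 and Npc2, all higher in IKO mice), as did 30.4% of all genes (11.9% higher and 18.5% lower in IKO mice). DESeq2 called 2, Abca1 and Abcg8 (13.8% of all genes called, 6.41% as higher), and limma-voom with sample quality weights called 3, Abca1, Abcg5 and Abcg8 (13.6% called, 7.17% as higher). The calls in edgeR also moved with single mice. Without IKO 4, the library with the highest mitochondrial share, Abca1 (log2 fold change 1.59, adjusted p = 0.0297) and Abcg8 (0.93, adjusted p = 0.0396) passed, as did 3.7% of all genes higher and 2.12% lower. Without WT 2, Abcg8 alone passed (0.95, adjusted p = 0.0409), as did 4.87% of all genes higher and 4.89% lower.

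The log2 fold changes of the 10 genes ran from -0.49 for Soat1 to 1.39 for Abca1. Their median was 0.24, and that of all genes tested was -0.09. For 6 genes (Abca1, Abcg1, Abcg5, Abcg8, Soat2 and Npc2) at least 6 of 7 IKO mice lay above the WT median, a pattern shown by 23.3% of all genes. The genotypes overlapped for each of the 10 genes, and 3.1% of all genes showed no overlap. IKO 4 was the lowest IKO mouse in 9 of the 10 genes, all but Mylip.

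**Figure D1:**
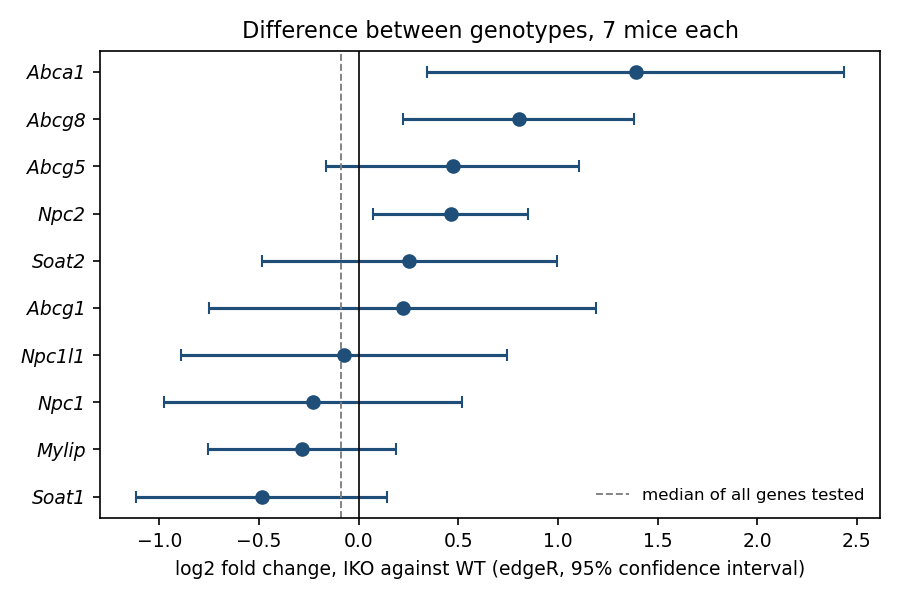
Log2 fold change of each of the 10 genes in IKO against WT mice (points, x axis, edgeR) with its 95% confidence interval (bars), 7 mice per genotype. The intervals of Abca1, Abcg8 and Npc2 lie above 0, those of the other 7 genes include it, and the dashed line marks the median of all genes tested, -0.09.

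Among the exporters, Abca1 had the largest fold change and also the largest SE. ABCA1 loads cholesterol and phospholipid onto apolipoprotein A-I. The gene lies on chromosome 4 from 53030787 to 53159895 (mm10, minus strand, ENSMUSG00000015243). Its level in WT mice was lowest at 30.3, had a median of 63.0 and was highest at 123 CPM. In IKO mice it was lowest at 20.2, had a median of 210.1 and was highest at 366 CPM. A total of 5 of 7 IKO mice lay above the highest WT mouse, IKO 2 was level with the WT median, and IKO 4 lay below every WT mouse. IKO over WT, the fold was 2.62 (1.27 to 5.42 at 95% confidence), or 1.39 on the log2 scale (SE 0.49, adjusted p = 0.0811).

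The bases just before the Abca1 start site are shown because they hold the one match to an LXR element among the members' promoters examined. RefSeq promoters (GRCm38.p6) were at hand for 7 of the 10 genes, and those of Abcg1, Npc1 and Soat2 were not examined here. In capitals are a match on the opposite strand to the direct repeat with 4 spacer bases that LXR binds (searched as NGGTNANNNNNGGTCA on both strands) and, nearer the start, a TATA box (TATAAA). The stretch is chr4:53159896-53160045, written on the minus strand and ending at the base before the start site.
Abca1: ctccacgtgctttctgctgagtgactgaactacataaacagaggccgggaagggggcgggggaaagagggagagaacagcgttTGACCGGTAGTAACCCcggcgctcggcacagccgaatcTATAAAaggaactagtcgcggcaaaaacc
The repeat lies 67 to 52 bases upstream of the start. In the 250 bases before the start, 0.177% of 32851 mouse RefSeq promoters held such a match and 12.4% held TATAAA. The letters of the repeat were chosen so that they admit the element known for Abca1, so its presence there is a description and no finding. The other 6 genes examined had no match to these letters in that window, which says nothing of LXR binding elsewhere.

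Abcg1, which exports cholesterol to lipoprotein particles that already hold lipid, was a low gene in these libraries. In WT mice it was lowest at 0.902, had a median of 3.80 and was highest at 11.04 CPM. In IKO mice it was lowest at 1.42, had a median of 5.99 and was highest at 7.31 CPM. The IKO values lay wholly inside the WT range, and the difference did not pass (log2 fold change 0.22, SE 0.46, adjusted p = 0.772). Its value depended on the fit, with 0.86 in limma-voom (adjusted p = 0.0853), 0.04 without WT 2 and 0.57 without WT 7. WT 7 had the highest Abcg1 and, with 167 CPM, the highest summed level of 8 macrophage markers (43.7 to 114 CPM in the other WT and 26.1 to 93.0 CPM in IKO mice). Macrophages are known to express Abcg1. The part of these cells in its level was not tested.

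Abcg5 and Abcg8 encode the partner subunits of the transporter that returns sterols to the lumen. They lie head to head on chromosome 17, Abcg5 from 84658234 to 84683011 on the minus strand (ENSMUSG00000040505) and Abcg8 from 84676302 to 84700333 on the plus strand (ENSMUSG00000024254). In the GENCODE annotation the genes overlap on opposite strands over 6710 bases and share 82 exon bases, 3.02% of those of Abcg5 and 2.19% of those of Abcg8. Whether the counting used strand was not stated, so reads in the shared bases cannot be told apart. RefSeq also places a start site of Abcg8 on the far side of the Abcg5 start, 109 bases away. That stretch, chr17:84683012-84683120 on the plus strand, is shown because it lies between these start sites of the partner genes. Its part in their levels was not tested. Capitals mark matches to a GATA site and to the TATA box, all on the minus strand.
between Abcg5 and Abcg8: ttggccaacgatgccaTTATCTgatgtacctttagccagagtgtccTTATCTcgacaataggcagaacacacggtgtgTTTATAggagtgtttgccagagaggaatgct
Searched as AGATAA on both strands, the GATA site was held by 9.99% of the 32851 promoters. The promoter of Npc1l1 held no match to the repeat, the GATA site, the TATA box or a sterol regulatory element (TCACNCCAC, 1.05% of promoters).

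Abcg8 showed the more even shift of the pair. Its level in WT mice was lowest at 128, had a median of 237 and was highest at 354 CPM. In IKO mice it was lowest at 179, had a median of 389 and was highest at 534 CPM. As for Abca1, 5 of 7 IKO mice lay above the highest WT mouse, and the other two, IKO 2 and IKO 4, were within the WT range. The difference was 1.74-fold (95% confidence interval 1.17 to 2.61, log2 fold change 0.80, SE 0.27, adjusted p = 0.0726).

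For Abcg5, the WT mice were lowest at 163, had a median of 277 and were highest at 640.2 CPM, and the IKO mice were lowest at 186, had a median of 449 and were highest at 519 CPM. The top WT value belonged to WT 2 alone. The next WT mouse had 318 CPM, below 6 of 7 IKO mice. The log2 fold change was 0.47 (95% confidence interval -0.16 to 1.11, SE 0.30, adjusted p = 0.294), and without WT 2 it was 0.78 (adjusted p = 0.0567).

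Within each genotype, mice with more Abcg5 tended to have more Abcg8, by a Pearson r that passed adjustment and a Spearman rho that did not. The log2 levels correlated in WT mice (Pearson r = 0.89, exact permutation p = 0.00437, adjusted p = 0.0175 over 8 correlations; Spearman rho = 0.82, exact p = 0.0341, adjusted p = 0.137; n = 7) and in IKO mice (r = 0.96, exact permutation p = 0.00417, adjusted p = 0.0175; rho = 0.89, exact p = 0.0123, adjusted p = 0.0984; n = 7). Without the 2 mice farthest from the median of Abcg5 (WT 2 and WT 7, IKO 2 and IKO 4), r was 0.81 in WT (exact permutation p = 0.117) and 0.58 in IKO mice (exact permutation p = 0.342). With 5 mice left over a narrower range, p rises even where r holds, and in IKO mice r itself fell from 0.96 to 0.58. These values cannot separate a relation that depends on the mice left out from a loss of power. Neither gene was set against Npc1l1 or Npc1, which were also highest in WT 2 and lowest in WT 7 among WT mice. The correlation is therefore not shown to be particular to this pair. The remaining 6 correlations, of Abca1 with Abcg5, Abca1 with Mylip and Npc1 with Npc2 in each genotype, did not pass (adjusted p from 0.0582 to 0.996). The closest to passing was Abca1 with Abcg5 in IKO mice (r = 0.88, exact permutation p = 0.0218; rho = 0.39, exact p = 0.396; n = 7), where r without IKO 2 and IKO 4 was -0.72 (n = 5).

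Npc1l1, the uptake gene and the target of ezetimibe, was the member with the most RNA per length in WT mice. It lies on chromosome 11 from 6211013 to 6230143 (minus strand, ENSMUSG00000020447). Its level was lowest at 315, had a median of 672 and was highest at 1082 CPM in WT mice, and was lowest at 138, had a median of 760.4 and was highest at 962 CPM in IKO mice. The IKO mice spread over nearly the whole WT range, and IKO 4 fell below it. The log2 fold change was -0.07 (95% confidence interval -0.89 to 0.74, SE 0.39, adjusted p = 0.915), and its sign turned in 6 of the alternative fits, among them those without WT 2 (0.06) and without IKO 4 (0.11). Differences of either sign inside that interval are compatible with these data.

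**Figure D2:**
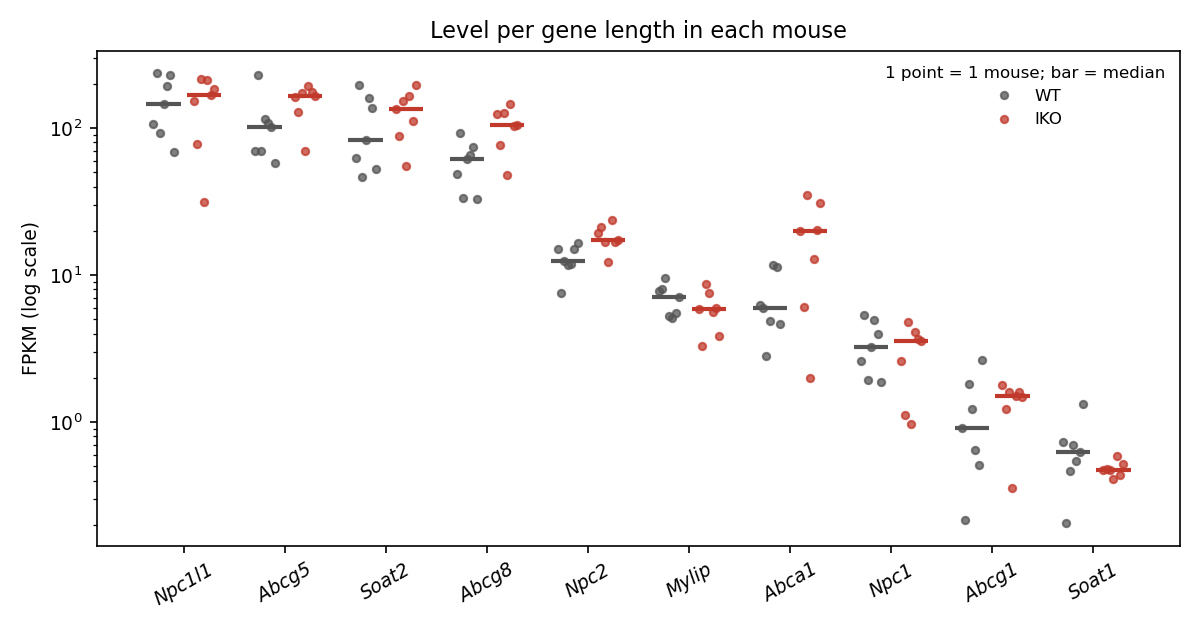
Level per gene length (FPKM, log scale on the y axis) of the 10 genes in each WT (grey) and IKO (red) mouse; a point is 1 mouse and a bar the median of 7. Npc1l1, Abcg5, Soat2 and Abcg8 have the 4 highest means in both genotypes. The IKO range of Abca1, from 1.98 to 35.2 FPKM, overlaps that of Npc1l1 only through the Npc1l1 value of IKO 4 (31.4 FPKM).

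Per gene length, in the deposited FPKM, the same 4 genes had the highest means in both genotypes. The WT means were 154 for Npc1l1, 108 for Abcg5, 106 for Soat2 and 58.3 for Abcg8, and then 12.9 for Npc2, 6.91 for Mylip, 6.79 for Abca1, 3.41 for Npc1, 1.14 for Abcg1 and 0.656 for Soat1. The ranges of Abcg8 and Npc2 did not overlap in either genotype. All other neighbours in the order overlapped, and in IKO mice the range of Npc1l1 (31.4 to 215 FPKM) also overlapped that of Abca1 (1.98 to 35.2 FPKM). That overlap came from IKO 4 alone, as the next lowest Npc1l1 was 77.7 FPKM (IKO 2). Within an IKO mouse, Abca1 was at most 0.166 of Npc1l1 per length. In IKO mice Abcg5 (153 ± 41.7 FPKM, SD, n = 7) and Npc1l1 (149 ± 69.4 FPKM) stood first with overlapping ranges, and Abca1 (18.1 ± 12.2 FPKM) was level with Npc2 (18.2 ± 3.70 FPKM).

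Because a ratio of 2 genes in the same library does not depend on how libraries are scaled, 7 ratios of members were compared by exact two-sided permutation tests over all 3432 divisions of the mice into 7 and 7, with adjustment over the 7. The 3 ratios of an exporter to the uptake gene among them, those of Abca1, Abcg5 and Abcg8 to Npc1l1, were higher in IKO mice. The ratio of Abcg1, the other exporter, to Npc1l1 was not tested. Abcg8 over Npc1l1, as a ratio of levels per length, was lowest at 0.320, had a median of 0.390 and was highest at 0.484 in WT mice, and was lowest at 0.561, had a median of 0.683 and was highest at 1.54 (IKO 4) in IKO mice. Every IKO mouse thus lay above every WT mouse. The ratio was 1.98-fold higher in IKO mice (log2 difference 0.99, SE 0.21, exact permutation p = 0.000583, the smallest that 7 against 7 allow, adjusted p = 0.00408).

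For Abca1 over Npc1l1, the WT mice ran from 0.0251 to 0.0683 and the IKO mice from 0.0604 to 0.166 per length. The genotypes overlapped narrowly, and the WT median was exceeded by 7 of 7 IKO mice (2.37-fold, log2 difference 1.24, SE 0.32, exact permutation p = 0.00291, adjusted p = 0.0102). Abcg5 over Npc1l1 ran from 0.439 to 0.9750 in WT and from 0.805 to 2.21 in IKO mice, and again 7 of 7 IKO mice exceeded the median of WT (1.65-fold, log2 difference 0.72, SE 0.25, exact permutation p = 0.00699, adjusted p = 0.0163). Each of the 3 passed in all fits that left out 1 mouse. The 3 ratios share their denominator and are not independent of each other.

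The differences passed against Npc1l1 and did not pass against either of the other denominators tried. In a comparison chosen after seeing the data, Vil1, which encodes the brush border protein villin, took the place of Npc1l1, and the log2 differences were 0.71 for Abca1, 0.19 for Abcg5 and 0.45 for Abcg8 (exact permutation tests, adjusted p from 0.388 to 0.600). With Soat2 as the denominator, also chosen after seeing the data, they were 0.72, 0.20 and 0.46 (exact permutation tests, adjusted p from 0.167 to 0.373). Without IKO 4 and WT 3 together, Abcg8 over Npc1l1 (log2 difference 0.80) and Abca1 over Npc1l1 (1.28) passed (exact permutation tests, adjusted p = 0.0152 for both), and Abcg5 over Npc1l1 (0.59, adjusted p = 0.0505) did not. NPC1L1 is known to be highest in the proximal small intestine, and the markers of gut region differed between mice as given above. Their part in these ratios was not tested.

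**Figure D3:**
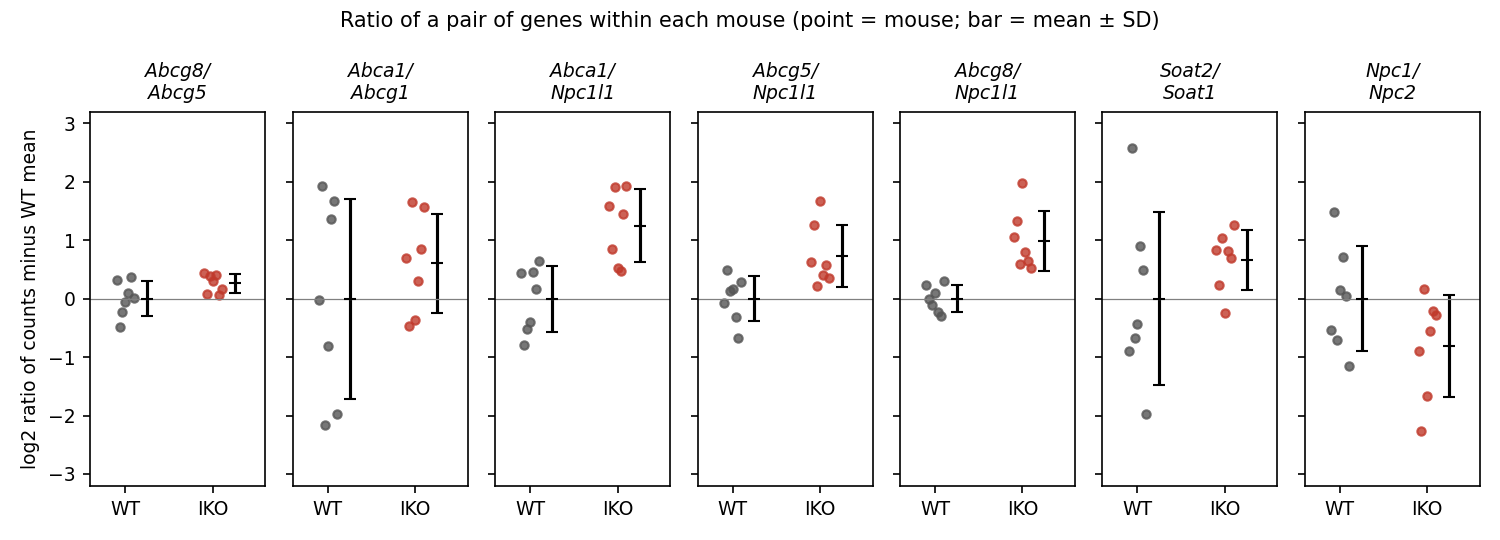
Log2 ratio of the counts of 2 members in each mouse, minus the mean of the WT mice (y axis), for the 7 ratios; a point is 1 mouse, and bars give the mean ± SD of 7 mice. The IKO mice of Abcg8/Npc1l1 all lie above the WT mice, those of Abca1/Npc1l1 and Abcg5/Npc1l1 all lie above the WT median, and the other 4 ratios did not pass the test.

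The other 4 ratios did not pass. Abcg8 over Abcg5 exceeded the WT median by a small step in 7 of 7 IKO mice (1.20-fold, log2 difference 0.26, exact permutation p = 0.0624, adjusted p = 0.109), and it passed without WT 6 (0.32, adjusted p = 0.0326). Abca1 over Abcg1 had a log2 difference of 0.61 (exact permutation p = 0.417, adjusted p = 0.417).

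Esterification in enterocytes is mainly the task of SOAT2, and SOAT1 is the form of most other cells. Soat2 (chromosome 15 from 102150526 to 102163469, plus strand, ENSMUSG00000023045) was lowest at 107, had a median of 187 and was highest at 446 CPM in WT mice, and was lowest at 120.2, had a median of 299 and was highest at 429.8 CPM in IKO mice. The genotypes covered nearly the same range (log2 fold change 0.25, 95% confidence interval -0.49 to 1.00, SE 0.35, adjusted p = 0.651). Soat1 was low throughout, lowest at 2.06, with a median of 6.12 and highest at 13.3 CPM in WT mice, and lowest at 3.94, with a median of 4.66 and highest at 5.68 CPM in IKO mice. All 7 IKO mice lay below the WT median, as they did for 15.8% of all genes, in a band inside the WT range (log2 fold change -0.49, SE 0.30, adjusted p = 0.274). The coefficient of variation of Soat1 was 52.5% in WT and 11.7% in IKO mice. This difference in spread was not tested.

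The balance of the 2 enzymes varied more among WT mice than between the genotypes. Per length, Soat2 over Soat1 ran from 40.2 (WT 7) to 942 (WT 2) in WT and from 133 to 378 in IKO mice. The log2 difference of 0.66 (SE 0.59, exact permutation p = 0.293, adjusted p = 0.341) did not pass, and without WT 2 it did (1.09, adjusted p = 0.04997).

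WT 2 and WT 7 stood at opposite ends for most members. WT 2 had the highest WT level of Abcg5, Abcg8, Npc1, Npc1l1 and Soat2 and the lowest of Abcg1, Npc2 and Soat1. WT 7 had the lowest of Abcg5, Abcg8, Npc1 and Npc1l1 and the highest of Abcg1, Npc2 and Soat1. The summed enterocyte markers were highest in WT 2 and lowest in WT 7, and the summed macrophage markers were highest in WT 7. Cell makeup was not measured, and its part in the levels was not tested.

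**Figure D4:**
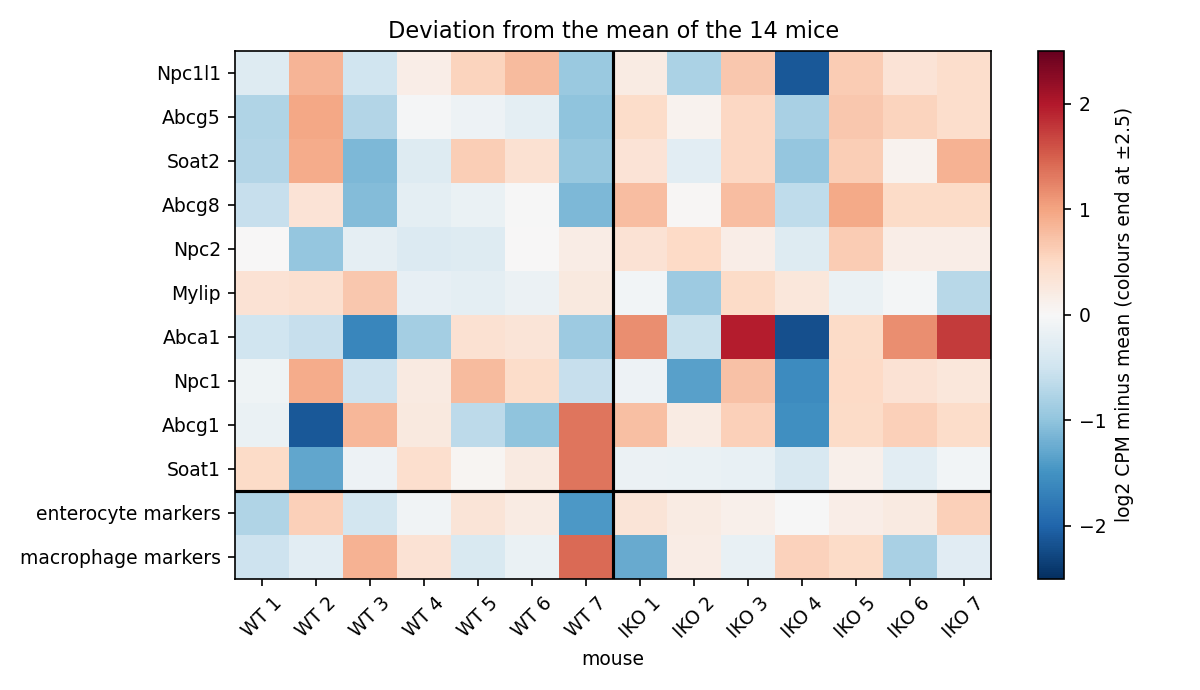
Deviation of the log2 CPM of each of the 10 genes and of the summed enterocyte and macrophage markers (rows) in each mouse (columns, WT left of the line) from the mean of the 14 mice; red is above and blue below. WT 2 and WT 7 have opposite colors in most rows, and IKO 4 is blue in all rows of the 10 genes but Mylip.

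Mylip encodes IDOL, a ubiquitin ligase that marks lipoprotein receptors for degradation. The gene lies on chromosome 13 from 45389742 to 45412022 (plus strand, ENSMUSG00000038175). It was lowest at 16.9, had a median of 23.7 and was highest at 31.9 CPM in WT mice, and was lowest at 10.7, had a median of 19.2 and was highest at 28.0 CPM in IKO mice. The genotypes overlapped, and 2 IKO mice lay below the WT range (log2 fold change -0.28, 95% confidence interval -0.75 to 0.19, SE 0.22, adjusted p = 0.399). Among the receptors it acts on, Vldlr differed by -0.42 on the log2 scale (adjusted p = 0.523) and Lrp8 by -1.10 (adjusted p = 0.120), both with medians under 3 CPM in each genotype.

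Npc2, the soluble lysosomal protein that binds cholesterol, lies on chromosome 12 from 84754562 to 84773152 (minus strand, ENSMUSG00000021242). Its RNA was lowest at 42.3, had a median of 70.6 and was highest at 93.4 CPM in WT mice, and was lowest at 65.6, had a median of 92.8 and was highest at 127 CPM in IKO mice. Above the highest WT mouse lay 3 IKO mice, and IKO 4 was the only IKO mouse below the WT median (1.38-fold, 95% confidence interval 1.05 to 1.80, log2 fold change 0.46, SE 0.18, adjusted p = 0.110).

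Npc1, its membrane partner, was lowest at 20.8, had a median of 35.9 and was highest at 58.8 CPM in WT mice, and was lowest at 10.3, had a median of 37.8 and was highest at 51.3 CPM in IKO mice. IKO 2 and IKO 4 lay below every WT mouse, and the medians were close (log2 fold change -0.23, SE 0.35, adjusted p = 0.686). Its GENCODE exons overlap those of Rmc1 and of an antisense gene on the other strand over 4.52% and 0.795% of their bases. Npc1 over Npc2 was below the WT median in 6 of 7 IKO mice (log2 difference -0.81, SE 0.47, exact permutation p = 0.114, adjusted p = 0.160).

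Around the 10 genes, 5 lists of sterol genes were counted, where 4.38% of all genes had passed higher and 4.28% lower in IKO mice. Among 11 regulators of LXR and SREBP activity, 3 rose. These were Srebf1 (log2 fold change 1.64, adjusted p = 0.0056), the transcription factor of fatty acid synthesis, and Insig1 (1.57, adjusted p = 0.0185) and Insig2 (1.15, adjusted p = 0.0055), which hold SREBP in the endoplasmic reticulum. None of the 11 fell in edgeR (1 at an unadjusted p under 0.05, Nr1h3) or in DESeq2, and limma-voom called Nr1h3 lower. Nr1h3, which encodes LXRα, was lowest at 64.7, had a median of 77.6 and was highest at 129 CPM in WT mice, and was lowest at 32.8, had a median of 44.4 and was highest at 86.7 CPM in IKO mice, where 6 of 7 lay below the WT median (log2 fold change -0.65, adjusted p = 0.0751). Nr1h2, which encodes LXRβ, had medians of 93.5 and 95.2 CPM (log2 fold change -0.05, adjusted p = 0.863).

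Of 12 other LXR targets, a list that shares Srebf1 and Nr1h3 with the regulators, 3 rose in edgeR and 5 in DESeq2 and in limma-voom, which added Lpcat3 (edgeR log2 fold change 1.05, adjusted p = 0.0578) and Smpdl3a (1.14, adjusted p = 0.0530), both named after their values were seen. In edgeR and DESeq2, none fell (1 at an unadjusted p under 0.05 in either, Nr1h3, which limma-voom called). Besides Srebf1, those that rose in edgeR were the desaturases that make monounsaturated fatty acids, Scd1 (log2 fold change 5.40, SE 0.85, adjusted p = 0.0027) and Scd2 (3.48, SE 0.63, adjusted p = 0.0062). Scd1 was lowest at 3.35, had a median of 35.4 and was highest at 74.1 CPM in WT mice, and was lowest at 226, had a median of 919.7 and was highest at 3871 CPM in IKO mice, with no overlap. The median log2 fold change of the list was 0.19, with 6 genes above and 6 below 0. The calls of Srebf1, Insig2, Scd1 and Scd2 held in all 25 alternative fits and that of Insig1 in 24.

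Of 8 genes of NPC1L1 trafficking between the recycling compartment and the brush border, Myo5b (log2 fold change 0.77, adjusted p = 0.0286) and Cdc42 (0.56, adjusted p = 0.0374) rose. Myo5b, a motor for recycling vesicles, was between 137 and 305 CPM in WT and between 262 and 438 CPM in IKO mice. Cdc42, a small GTPase, was between 291 and 476 CPM in WT and between 503 and 649 CPM in IKO mice, with no overlap. None of the 8 fell in edgeR (1 at an unadjusted p under 0.05, Rab11fip2, named here after its values were seen), and DESeq2 and limma-voom called that gene lower. DESeq2 also called Rab11a higher, named after its values were seen. Leaving out any 1 of WT 3, WT 4, WT 7, IKO 1, IKO 5 or IKO 7 ended both calls, as did leaving out WT 1, IKO 2 or IKO 4 for Cdc42 (adjusted p up to 0.0679 for Myo5b and 0.0741 for Cdc42). Both were also lost without a filter, with the replicate block and without IKO 4 and WT 3 together (adjusted p from 0.0651 to 0.0743 for Myo5b and from 0.0703 to 0.124 for Cdc42). Lima1, an adaptor that ties NPC1L1 to Myo5b, had medians of 288 and 391 CPM (log2 fold change 0.20, adjusted p = 0.556).

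Of 11 intracellular sterol carriers and lysosomal genes, 1 fell, Gramd1a (log2 fold change -1.28, adjusted p = 0.0295), which moves cholesterol from the plasma membrane to the endoplasmic reticulum. It was between 9.46 and 43.7 CPM in WT and between 5.62 and 17.1 CPM in IKO mice. It was not called by limma-voom, by limma on log2 FPKM without a filter, with the replicate block or without IKO 4 and WT 3 together (adjusted p from 0.0907 to 0.158), and leaving out any 1 of WT 3, WT 4, WT 7, IKO 1, IKO 2, IKO 4, IKO 5 or IKO 7 ended the call (adjusted p up to 0.0684). None of the 11 rose in edgeR, DESeq2 or limma-voom, with 0, 1 and 2 at an unadjusted p under 0.05. Lipa, the lysosomal acid lipase that frees cholesterol from its esters, had medians of 33.1 and 61.3 CPM, and 6 of 7 IKO mice lay above the WT median (log2 fold change 0.66, SE 0.40, adjusted p = 0.267).

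Of 9 genes of ester hydrolysis and oxysterol metabolism, 4 had enough counts to be tested in edgeR and none passed in edgeR, DESeq2 or limma-voom, with 1, 2 and 0 at an unadjusted p under 0.05. Nceh1, an ester hydrolase, had medians of 11.2 and 10.6 CPM (log2 fold change -0.07, adjusted p = 0.921).

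The genes whose log2 levels followed those of a member most closely over the 14 mice were found by the root mean square difference of centered levels among 11269 genes. For Abca1 they were Gm15368 (0.35) and Abcb1a (0.37), where Abca1 itself had an SD of 1.20. For Abcg5 they were Grina (0.23) and Spint1 (0.23), against an SD of 0.61. Abcg8 was followed by Map7 (0.20) and Tnfrsf1a (0.20), against an SD of 0.65. Npc1l1 was followed by Slc41a2 (0.23) and Lrp12 (0.24), against an SD of 0.81. None of these 4 had another member among its nearest genes. Cell markers and depth differed between the mice, and their part in these likenesses was not tested.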

How the data were processed

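Total RNA from ileum mucosa was sequenced as 150-bp paired-end reads after a NEBNext library preparation. Per the labels and the study's methods, the authors aligned reads with HISAT2 2.0.5 and counted them per gene with featureCounts 1.5.0-p3, on mm10 by their processing notes. Strandedness and filters were not stated. The deposited counts are raw whole numbers. A check of the deposited FPKM showed that they are these counts over gene length and over a DESeq2 size factor, up to 1 constant. Groups came from the sample titles, and the columns of IKO mice are headed KO.

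Counts were filtered with filterByExpr, scaled with TMM and compared with edgeR 4.0.16 in R 4.3.3 (glmQLFTest, genotype only, Benjamini-Hochberg adjustment over 13846 genes). The SE was taken as the absolute log2 fold change over the root of F. Log2 CPM used a prior count of 2 and ratios a pseudocount of 0.5. Fits were tested on simulated data. The 10 genes, the gene lists and the tests were chosen with earlier results of these data known. All 10 members were described. Of the lists, genes with an adjusted p under 0.05 and partners of a member were named, and the nearest genes were sought among those with a mean log2 CPM of at least 1.

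Alternatives were DESeq2 1.42.0, RLE scaling, no filter, a minimum of 10 counts per sample, limma 3.58.1 on log2 FPKM (pseudocounts of 1 and 0.1, genes above 0.5 in at least 7 samples, or no filter), limma-voom with sample quality weights, the replicate number as a block, no mitochondrial genes, IKO 4 and WT 3 left out together, and each mouse left out in turn. Same-numbered mice did not deviate together. Results for some single genes and for a list that holds them are not reported here. Promoters are from RefSeq (GRCm38.p6).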

Additional observations from a re-analysis of the deposited data

Results flagged for a closer look

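In 2 of 34 groups of 7 mice examined for a single distant mouse, the gap of 1 mouse to its nearest neighbor was a larger part of the group's range than Dixon's 95% critical value allows. About 1.7 such groups come by chance. Both were IKO 4, the library with 50.3% mitochondrial counts. Its Abcg1 was the lowest of the IKO mice, at 1.42 CPM against 4.95 CPM in the next (gap 0.758 of the range). Its Abcg5 was also the lowest, at 186 CPM against 349.7 CPM in the next (gap 0.616 of the range). For Abca1, Abcg1, Abcg5, Abcg8, Soat2 and Npc2, IKO 4 was the only IKO mouse below the WT median. Leaving it out therefore gave 6 of 6 above that median by construction, and the share of all genes doing so was not computed. Without IKO 4, 0 of the 10 genes were free of overlap between the genotypes. The part of RNA quality or of the mitochondrial share in these levels was not tested.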

How the results depend on the processing

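Of 250 alternative values of the 10 fold changes, 235 kept their direction and their side of the threshold. The number of members called was 0 in edgeR, 2 with DESeq2, 3 with limma-voom and 1 without IKO 4 and WT 3 together, and 0 to 2 when 1 mouse was left out (2 without IKO 4, 1 without WT 2). Abca1 passed with DESeq2 (log2 fold change 1.42), limma-voom (1.31) and without IKO 4 and WT 3 together (1.46), and ranged from 1.13 to 1.59 with 1 mouse left out. Abcg8 passed with DESeq2 (0.84) and limma-voom (0.93) and ranged from 0.69 to 0.95. Abcg5 passed with limma-voom (0.81). Npc1l1 turned positive with limma-voom (0.0850) and without IKO 4 and WT 3 together (0.0143), and ranged from -0.21 to 0.11 with 1 mouse left out, positive without WT 2, WT 6, IKO 2 or IKO 4. The causes were not tested.

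Of 132 alternative values of the ratios, 123 kept both. With Vil1 in place of Npc1l1 the differences fell to 0.71 for Abca1, 0.19 for Abcg5 and 0.45 for Abcg8, with Soat2 to 0.72, 0.20 and 0.46, and Abcg5 over Npc1l1 lost its call without IKO 4 and WT 3 together (0.59, with 2 mice fewer). Soat2 over Soat1 passed without WT 2 (range 0.33 to 1.09 with 1 mouse left out) and Abcg8 over Abcg5 without WT 6 (range 0.18 to 0.32). Without the 2 farthest mice, which leaves 5, the correlation of Abcg5 and Abcg8 no longer passed (0.81 in WT, 0.58 in IKO), and those in IKO mice of Abca1 with Abcg5 (-0.72) and of Npc1 with Npc2 (-0.13) turned negative. With only 5 mice, a correlation has little room to pass.

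Mice with the same number did not deviate together (correlations from -0.31 to 0.23, and 1 of 7 numbers was the best match of its own). With the replicate number as a block, 362 genes passed in place of 1200, and 0 members did (Abca1 1.05, Abcg8 0.82). Over all genes, limma on log2 FPKM gave 774 higher and 295 lower calls in place of 607 and 593, no filter gave 346 and 162, and DESeq2 gave 1138 and 1306. With 7 mice per genotype, the intervals of Npc1l1 (-0.89 to 0.74) and Abcg1 (-0.75 to 1.19) include 0.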
